A study of Homo sapiens with 8 samples.

Results

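The 9 genes described here serve the display of antigen by major histocompatibility complex (MHC) class I molecules: HLA-B, HLA-C, HLA-E, HLA-F, B2M, TAP1, TAP2, TAPBP and NLRC5. They were chosen by name from the 57189 genes counted in a poly(A) RNA-seq experiment on a pair of human lines of T-cell acute lymphoblastic leukaemia (T-ALL), CUTLL1 (written CUTTL1 by the submitters) and TIB153. The 4 groups were CUTLL1 with PKF118-310, CUTLL1 control, TIB153 with PKF118-310 and TIB153 control, all kept in RPMI medium with fetal bovine serum. PKF118-310 is a small molecule that inhibits β-catenin/TCF, and its effects through other targets cannot be told apart here. The authors of the study reported that it lowered the viability of both lines, and effects of lost viability cannot be told apart either. Each group held 1 library sequenced in 2 lanes, which leaves values within a line without replicates. Both are established cell lines grown in culture, and 2 lines cannot stand for T-ALL at large.

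Class I molecules are built from a heavy chain and the invariant light chain β2-microglobulin, and they carry short peptides from the cytosol to the cell surface for inspection by CD8+ T cells and natural killer cells. Peptides made by the proteasome are pumped into the endoplasmic reticulum by the TAP1-TAP2 transporter, trimmed there by aminopeptidases and loaded onto new heavy chains with the help of tapasin, the product of TAPBP. HLA-B and HLA-C encode classical, highly variable heavy chains. HLA-E and HLA-F encode non-classical ones, and HLA-E is known for presenting leader peptides of other class I molecules to the NKG2A receptor of natural killer cells. NLRC5 encodes a transactivator that raises transcription of class I genes through the X and Y boxes of their promoters.

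By symbol, 7 of the 9 members had a promoter entry in the RefSeq set for GRCh38.p14, covering 250 bases before to 50 bases after the start of transcription (HLA-E and NLRC5 had none). The promoters of 3 heavy chain genes and of B2M are shown because the level of HLA-B and HLA-F differed widely between the lines and that of B2M and HLA-C did much less. Capitals mark the Y box ATTGG (whose match on the opposite strand reads CCAAT here), TGACG of the X2 box, the core GAAANNGAA of the interferon-stimulated response element and the NF-κB core GGGNNTTCC, searched on both strands with overlaps allowed. HLA-B lies at chr6:31357130-31357429 on the minus strand, HLA-C at chr6:31272043-31272342 on the minus strand, HLA-F at chr6:29723184-29723483 on the plus strand and B2M at chr15:44711267-44711566 on the plus strand.
HLA-B promoter: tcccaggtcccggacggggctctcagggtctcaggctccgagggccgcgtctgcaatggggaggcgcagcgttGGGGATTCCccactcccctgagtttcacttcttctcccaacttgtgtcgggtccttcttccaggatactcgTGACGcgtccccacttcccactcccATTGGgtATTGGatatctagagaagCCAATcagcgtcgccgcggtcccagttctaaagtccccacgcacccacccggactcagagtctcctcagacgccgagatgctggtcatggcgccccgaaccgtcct
HLA-C promoter: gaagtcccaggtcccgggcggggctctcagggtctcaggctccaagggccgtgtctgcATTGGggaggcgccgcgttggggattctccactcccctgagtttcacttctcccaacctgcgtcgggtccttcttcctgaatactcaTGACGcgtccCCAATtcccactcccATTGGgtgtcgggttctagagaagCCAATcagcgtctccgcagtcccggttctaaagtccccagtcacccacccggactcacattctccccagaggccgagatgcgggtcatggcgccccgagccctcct
HLA-F promoter: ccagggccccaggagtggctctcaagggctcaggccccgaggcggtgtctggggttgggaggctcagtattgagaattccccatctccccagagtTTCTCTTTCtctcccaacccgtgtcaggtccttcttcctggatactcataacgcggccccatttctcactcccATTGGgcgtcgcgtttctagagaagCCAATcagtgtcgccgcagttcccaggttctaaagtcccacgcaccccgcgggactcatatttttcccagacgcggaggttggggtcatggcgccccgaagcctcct
B2M promoter: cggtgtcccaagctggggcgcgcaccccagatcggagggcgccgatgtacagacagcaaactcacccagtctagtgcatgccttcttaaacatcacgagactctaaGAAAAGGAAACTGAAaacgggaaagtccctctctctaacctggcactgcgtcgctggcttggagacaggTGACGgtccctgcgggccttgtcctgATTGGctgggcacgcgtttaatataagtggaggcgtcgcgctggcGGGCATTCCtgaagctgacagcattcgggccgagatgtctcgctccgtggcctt

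The HLA-B and HLA-C promoters shared 89.7% of their 300 bases in a global alignment, HLA-C and HLA-F shared 80.3%, and HLA-B and B2M shared 43.3%. TGACG stood at −106 in HLA-B, at −105 in HLA-C and at −75 in B2M, and did not occur in the HLA-F window. A Y box on the gene's own strand followed at −81 and −74 in HLA-B, at −80 in HLA-C, at −82 in HLA-F and at −49 in B2M. The NF-κB core was found at −177 in HLA-B and at −4 in B2M, and not in HLA-C or HLA-F. A response element core was found on the opposite strand at −155 in HLA-F. In B2M an overlapping pair of these cores stood on the gene's own strand at −144 and −138. Of 35116 promoters of the same length, 34.6% held ATTGG, 24.6% TGACG, 8.11% GAAANNGAA and 6.58% GGGNNTTCC. Both TCF/LEF cores, CTTTGAA (in 4.43% of promoters) and CTTTGAT (2.62%), were searched as well, and the only member match was CTTTGAT at −226 in the first of the TAP1 promoters, on the opposite strand. These matches describe letters in a window and say nothing of binding.

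**Figure D1:**
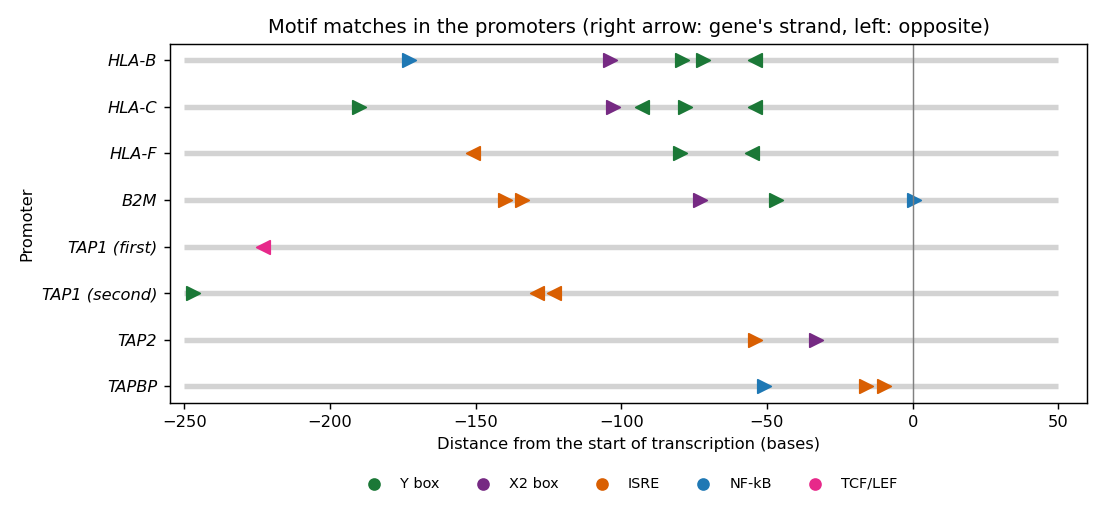
Motif matches in the 8 promoters of 7 members, by distance from the start of transcription in bases (x axis). Each grey bar is a promoter and each arrow a match, pointing right on the gene's strand and left on the opposite strand. HLA-B and HLA-C share the X2 box match and 2 of the Y box matches at nearly the same distance, and HLA-F has Y box matches at those distances without the X2 box match.

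Library totals ranged from 7609427 to 8140391 counts, and 3 counts, the limit that a count of 0 allows, corresponded to 0.369 to 0.394 CPM (reads of a gene relative to the size of its library). Between the lanes of a library, counts differed no more than sampling noise (chi-square per degree of freedom 0.99 to 1.02), and of 36 comparisons of a member between lanes 1 had an exact binomial p under 0.05 (smallest 0.0375, unadjusted). All 9 members were among the 13280 genes that passed the filter on low counts. The T lineage markers CD3D, CD3E, CD3G, CD7, CD2, CD5, LCK and PTCRA were detected in every library. The 8 summed to 1620 and 2210 CPM with PKF118-310 and 1930 and 2220 CPM in control cells of CUTLL1 and TIB153. Across lines 2 of the 8, CD3G and CD7, fell, beside 6.78% of all genes. All 8 were lower beyond counting error in CUTLL1 with PKF118-310 (median log2 ratio −0.55, with CD2 at −1.76 and PTCRA at −1.04), beside 23.9% of all genes. In TIB153 3 of the 8 were higher and 3 lower, beside 25.2% and 28.7% of all genes. The part of these markers in the results below was not tested. The B cell marker MS4A1 had 0 counts in all 4 libraries, although CD79A reached 104 CPM in TIB153, and the 4 myeloid and 3 erythroid markers summed to at most 0.651 CPM. The 3 stromal markers summed to 46.9 and 53.2 CPM in CUTLL1 with PKF118-310 and control and to 121 and 156 CPM in TIB153, nearly all of it PECAM1, which blood cells also express, while COL3A1 lay at 0 to 0.125 CPM. The 10 class II genes reached at most 3.39 CPM: HLA-DRA had 0 counts in all 4 libraries, its chaperone CD74 lay at 0 to 0.13 CPM and the class II transactivator CIITA at 0 to 0.13 CPM.

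Per length, B2M was the most abundant of the 9 and NLRC5 and HLA-F the least abundant in every library. Levels are given as RPKM (CPM per kilobase of merged exons, GENCODE v29). In CUTLL1 with PKF118-310, B2M stood at 98.4 RPKM, followed by HLA-C at 51.5, HLA-E at 32.0, TAP1 at 14.3, TAPBP at 11.4, HLA-B at 9.71, TAP2 at 6.3, NLRC5 at 0.272 and HLA-F at 0.144 RPKM. In CUTLL1 control the order was B2M at 77.8, HLA-C at 39.8, HLA-E at 19.9, TAP1 at 11.5, TAPBP at 10.5, TAP2 at 5.65, HLA-B at 5.1, NLRC5 at 0.164 and HLA-F at 0.0935 RPKM. HLA-B was thus below HLA-C and HLA-E in both CUTLL1 libraries. It stood near TAP2 in CUTLL1 control by merged exons, and above TAP2 per kilobase of the longest transcript (10.1 against 6.36).

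In TIB153 with PKF118-310 the order was B2M at 106, HLA-C at 66.6, HLA-E at 40.6, HLA-B at 40.1, TAP1 at 14.1, TAPBP at 10.3, TAP2 at 4.6, NLRC5 at 2.61 and HLA-F at 0.88 RPKM. In TIB153 control it was B2M at 88.8, HLA-C at 61.0, HLA-B at 34.7, HLA-E at 24.3, TAP1 at 14.3, TAPBP at 13.5, TAP2 at 6.87, NLRC5 at 2.41 and HLA-F at 1.17 RPKM. Neighbours with overlapping 95% Poisson intervals, which cover counting error only, were HLA-E and HLA-B in TIB153 with PKF118-310, TAPBP and HLA-B in CUTLL1 with PKF118-310, TAP1 and TAPBP as well as TAP2 and HLA-B in CUTLL1 control, TAP1 and TAPBP in TIB153 control, and NLRC5 and HLA-F in both CUTLL1 libraries. Per kilobase of the longest transcript instead of merged exons, B2M stood at 249 and 197 in CUTLL1 with PKF118-310 and control, and HLA-B (79.0) stood above HLA-E (46.5) in TIB153 with PKF118-310.

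**Figure D2:**
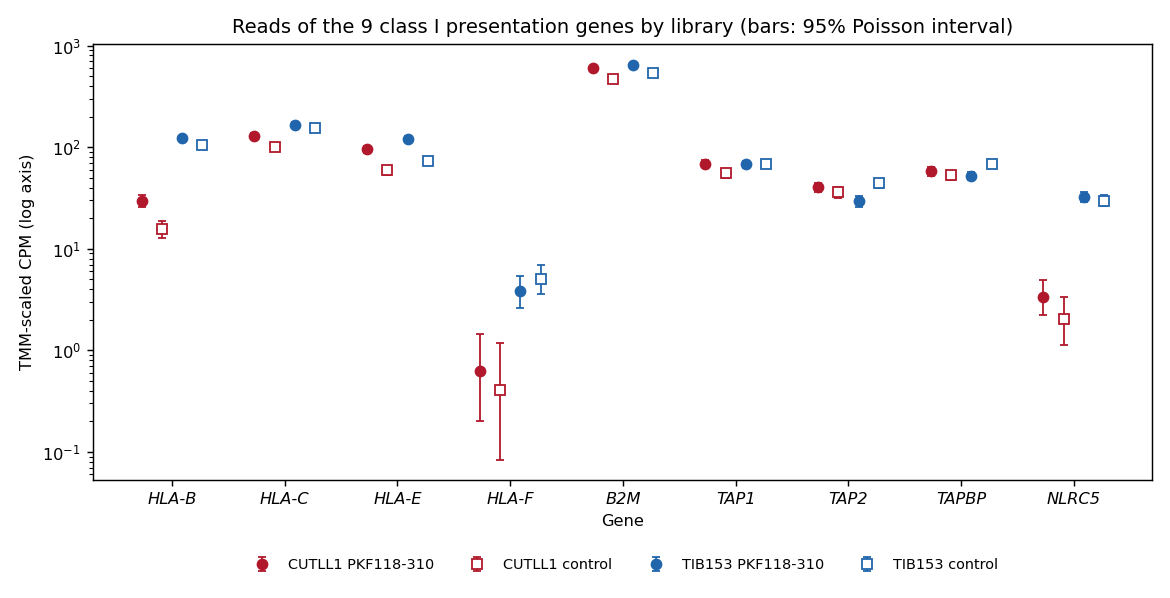
TMM-scaled CPM (log axis) of the 9 genes in the 4 libraries, filled circles for PKF118-310 and open squares for control, red for CUTLL1 and blue for TIB153. Bars are 95% Poisson intervals. HLA-B, HLA-F and NLRC5 in CUTLL1 lie far below their level in TIB153, and the HLA-E circle lies above its square in both lines.

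The first comparison asked how the genes differed between PKF118-310 and control cells over both lines. HLA-E was the only member that rose. It had 95.1 CPM in CUTLL1 with PKF118-310 against 59.1 CPM in CUTLL1 control, and 121 CPM in TIB153 with PKF118-310 against 72.4 CPM in TIB153 control. Both treated libraries lay above both control libraries. The log2 ratio was 0.68 in CUTLL1 (95% counting interval 0.51 to 0.86) and 0.74 in TIB153 (0.59 to 0.89). Across lines the log2 change was 0.71 ± 0.13 (SE), or 1.64-fold, with an adjusted p of 0.00518 in edgeR's quasi-likelihood test with line as a block (n = 2 lines). Of all genes tested, 6.11% rose and 6.78% fell by this test, so 1 member up and 0 down of 9 is a share near the background. With 1 residual degree of freedom the SE draws mostly on the spread pooled over genes, and without the line block HLA-E no longer passed (adjusted p = 0.721). The other alternatives gave adjusted p of 0.000111 to 0.0244.

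HLA-B, HLA-C and B2M were higher in both treated libraries than in the matched controls, without passing the test across lines. HLA-B had 29.6 CPM in CUTLL1 with PKF118-310 against 15.6 CPM in CUTLL1 control (237 and 115 counts), and 122 CPM in TIB153 with PKF118-310 against 106 CPM in TIB153 control. Its log2 ratio was 0.93 in CUTLL1 (0.60 to 1.26) and 0.21 in TIB153 (0.07 to 0.34), and the change across lines was 0.51 ± 0.18 with an adjusted p of 0.087. Both ratios were above 0, and the CUTLL1 value was the larger. Keeping every gene with a read gave HLA-B an adjusted p of 0.0331, and the value came to 0.21 without CUTLL1 and 0.93 without TIB153.

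HLA-C had 129 CPM in CUTLL1 with PKF118-310 against 99.7 CPM in CUTLL1 control, and 167 CPM in TIB153 with PKF118-310 against 153 CPM in TIB153 control. Its log2 ratios were 0.37 (0.23 to 0.51) in CUTLL1 and 0.13 (0.01 to 0.24) in TIB153, and the change across lines was 0.25 ± 0.13 (adjusted p = 0.211). B2M, the light chain shared by all class I molecules, had 598 CPM in CUTLL1 with PKF118-310 against 473 CPM in CUTLL1 control, and 645 CPM in TIB153 with PKF118-310 against 540 CPM in TIB153 control. Its log2 ratios were 0.34 (0.28 to 0.40) in CUTLL1 and 0.26 (0.20 to 0.32) in TIB153, and the change across lines was 0.30 ± 0.13 (adjusted p = 0.134). HLA-F was scarce in CUTLL1, with 5 counts with PKF118-310 and 3 counts in control, a log2 ratio of 0.54 (−1.74 to 3.31). In TIB153 it had 32 counts with PKF118-310 and 39 counts in control, a log2 ratio of −0.41 (−1.13 to 0.30), and a difference was not detectable at this depth.

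The genes of peptide transport and loading did not follow the heavy chains in TIB153. TAP1 had 68.7 CPM in CUTLL1 with PKF118-310 against 55.2 CPM in CUTLL1 control, a log2 ratio of 0.32 (0.13 to 0.50), and 67.7 CPM in TIB153 with PKF118-310 against 68.9 CPM in TIB153 control, a log2 ratio of −0.03 (−0.20 to 0.15). The CUTLL1 value rested on lane: it was 0.07 in the first lane and 0.58 in the second. TAP2, the partner of TAP1 in the transporter, had 40.2 CPM in CUTLL1 with PKF118-310 against 36.1 CPM in CUTLL1 control, a log2 ratio of 0.15 (−0.08 to 0.39). In TIB153 it had 29.4 CPM with PKF118-310 against 43.9 CPM in control, a log2 ratio of −0.58 (−0.82 to −0.34). TAP2 was thus lower in the treated TIB153 library beyond counting error, and so was TAPBP, the gene of tapasin. TAPBP had 57.7 CPM in CUTLL1 with PKF118-310 against 53.2 CPM in CUTLL1 control, a log2 ratio of 0.12 (−0.08 to 0.32), and 52.3 CPM in TIB153 with PKF118-310 against 68.3 CPM in TIB153 control, a log2 ratio of −0.38 (−0.57 to −0.20). Across lines none of the 3 passed the test: the changes were 0.14 ± 0.15 for TAP1 (adjusted p = 0.564), −0.21 ± 0.20 for TAP2 (0.519) and −0.13 ± 0.16 for TAPBP (0.624).

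NLRC5 had 27 counts in CUTLL1 with PKF118-310 and 15 counts in CUTLL1 control (3.37 and 2.03 CPM), a log2 ratio of 0.71 (−0.23 to 1.75). In TIB153 it had 32.4 CPM with PKF118-310 and 29.8 CPM in control, a log2 ratio of 0.12 (−0.14 to 0.38). Neither interval excluded no change, and the change across lines was 0.29 ± 0.27 (adjusted p = 0.519).

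**Figure D3:**
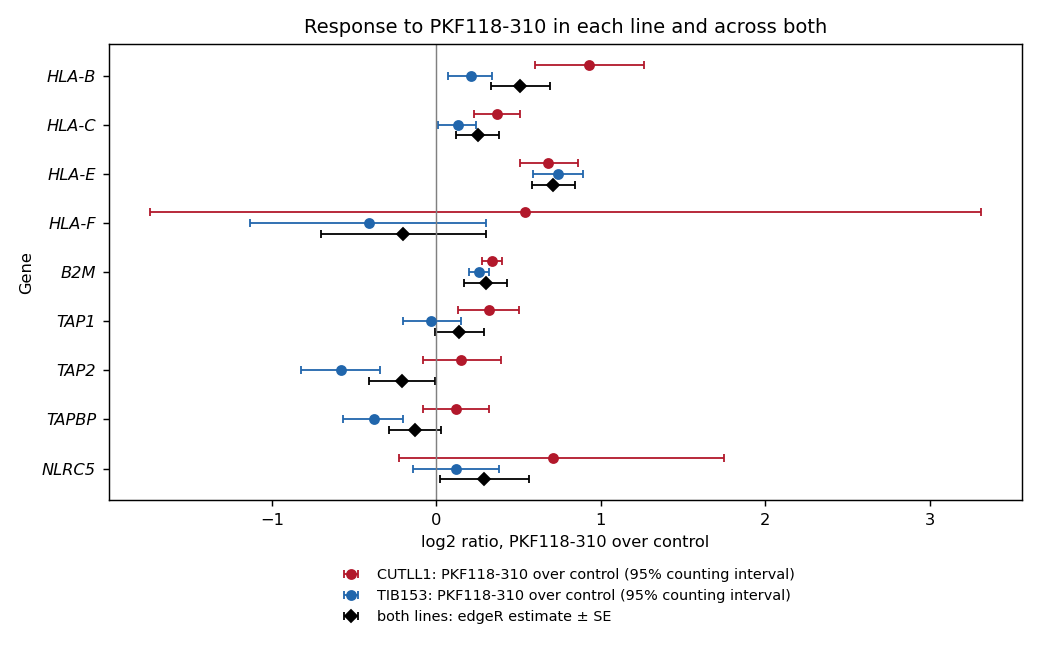
Log2 ratio of PKF118-310 over control (x axis) for each gene in CUTLL1 (red) and TIB153 (blue) with 95% counting intervals, and the edgeR estimate across lines with its SE (black). HLA-E lies near 0.7 in both lines, and TAP2 and TAPBP lie below 0 in TIB153 and slightly above it in CUTLL1.

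No member was 2-fold higher or lower in either line, against 4.8% of genes past 2-fold upward and 2.21% downward in CUTLL1, and 5.47% upward and 2.12% downward in TIB153. Beyond counting error, HLA-B, HLA-C, HLA-E, B2M and TAP1 were higher in CUTLL1 (5 of 9 members, 23.3% of all genes) and none was lower (23.9% of all genes). In TIB153 HLA-B, HLA-C, HLA-E and B2M were higher (4 of 9, 25.2% of all genes), and TAP2 and TAPBP were lower (2 of 9, 28.7%). The 4 genes HLA-B, HLA-C, HLA-E and B2M were higher beyond counting error in both lines, as were 13.1% of all genes. None was lower in both (15.7%) or beyond counting error in opposite directions (3.4%). The median log2 ratio of the members was 0.37 in CUTLL1 and 0.12 in TIB153, beside 0.0 and −0.01 for all genes tested. The 9 genes together took 0.103% of the reads in CUTLL1 with PKF118-310 against 0.0771% in CUTLL1 control, and 0.128% in TIB153 with PKF118-310 against 0.107% in TIB153 control.

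The difference of the lines' log2 ratios, CUTLL1 minus TIB153, was 0.72 for HLA-B (95% counting interval 0.37 to 1.07), 0.25 for HLA-C (0.07 to 0.42), 0.34 for TAP1 (0.09 to 0.59), 0.73 for TAP2 (0.40 to 1.07) and 0.50 for TAPBP (0.24 to 0.77). These 5 of 9 members lay above 0 beyond counting error, against 19.1% of all genes, and none lay below 0 (14.1%). For HLA-E the difference was −0.05 (−0.28 to 0.17), so its interval held 0. The difference for HLA-F was 0.94 (−1.10 to 2.99) and that for NLRC5 was 0.60 (−0.34 to 1.53). No residual degree of freedom was left to test these differences between libraries.

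Ratios within a library need no scaling between libraries. HLA-E stood at 73.7 reads per 100 HLA-C reads in CUTLL1 with PKF118-310 (67.0 to 81.0) against 59.3 in CUTLL1 control (52.6 to 66.8), and at 72.3 in TIB153 with PKF118-310 (66.7 to 78.5) against 47.3 in TIB153 control (42.7 to 52.4). HLA-E thus gained on HLA-C in both lines, and also on B2M, with 15.9 against 12.5 reads per 100 B2M reads in CUTLL1 and 18.7 against 13.4 in TIB153, PKF118-310 against control. HLA-B stood at 22.9 reads per 100 HLA-C reads in CUTLL1 with PKF118-310 (19.8 to 26.4) against 15.6 in CUTLL1 control (12.7 to 19.0), and at 73.2 in TIB153 with PKF118-310 (67.5 to 79.4) against 69.2 in TIB153 control (63.2 to 75.7). The intervals of this proportion did not overlap between treatment and control in CUTLL1 and did in TIB153, and the difference between lines was not tested. Relative to B2M, HLA-B and HLA-C in TIB153 stood at log2 ratios of −0.05 and −0.13 with PKF118-310. The intervals of treatment and control overlapped for both genes, which does not show that the proportions were equal. The difference was not tested. Per 100 B2M reads, HLA-B had 19.0 (17.7 to 20.3) in TIB153 with PKF118-310 against 19.6 (18.2 to 21.2) in control. HLA-C had 25.9 (24.4 to 27.5) against 28.4 (26.6 to 30.3).

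TAP2 stood at 43.4 reads per 100 TAP1 reads in TIB153 with PKF118-310 (37.2 to 50.5) against 63.7 in TIB153 control (55.4 to 73.2). In CUTLL1 it stood at 58.5 with PKF118-310 (50.9 to 67.3) against 65.4 in control (55.9 to 76.5), with overlapping intervals. The TIB153 library with PKF118-310 was the lowest of the 4. TAP2 reads are uncertain, because 32.3% of its exonic bases are shared on the same strand with another annotated gene, AL669918.1, and how such reads were assigned is not known from the sources.

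For NLRC5, HLA-F and HLA-B the libraries lay farther apart between the lines than between PKF118-310 and control. NLRC5 had 3.37 and 2.03 CPM in CUTLL1 with PKF118-310 and control, against 32.4 and 29.8 CPM in TIB153 with PKF118-310 and control. HLA-B had 29.6 and 15.6 CPM in CUTLL1, against 122 and 106 CPM in TIB153, in the same order, and HLA-F had 0.625 and 0.406 CPM against 3.82 and 5.08 CPM. In each of the 3 genes both CUTLL1 libraries lay below both TIB153 libraries. By edgeR's quasi-likelihood test with treatment as a block, the log2 difference of CUTLL1 minus TIB153 was −3.53 ± 0.28 for NLRC5 (adjusted p = 8.92e-07, 11.5-fold lower) and −2.38 ± 0.18 for HLA-B (3.21e-06, 5.21-fold lower). HLA-F had 5 and 3 counts in CUTLL1 with PKF118-310 and control against 32 and 39 in TIB153, and it passed the filter on low counts through TIB153, the line where it is high, so its estimate of −3.05 ± 0.54 is given as a description. Genes on the opposite strand share 28.5% of the exonic bases of HLA-F and 17.8% of those of HLA-B. Whether reads were counted by strand is not known from the sources, so reads of both genes are uncertain to that extent.

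HLA-C was also lower in CUTLL1, by a far smaller step of −0.49 ± 0.13 (adjusted p = 0.00933), which DESeq2's Wald test did not call (adjusted p = 0.0817). The other 5 members did not pass: HLA-E at −0.32 ± 0.13 (adjusted p = 0.0852), B2M at −0.15 ± 0.13 (0.409), TAP1 at −0.15 ± 0.15 (0.503), TAPBP at −0.11 ± 0.16 (0.663) and TAP2 at 0.08 ± 0.20 (0.788). NLRC5, HLA-B and HLA-C were lower in CUTLL1 by this test, which called 14.6% of all genes lower and 13.5% higher, and no member was higher. HLA-B and HLA-C are highly variable between people, and reads were counted on the reference sequence hg38, so their levels are those of reads that aligned to it. How well the alleles of each line align there was not tested.

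Between the control libraries alone, every member other than HLA-F was lower in CUTLL1 beyond counting error, as were 27.8% of all genes, while 27.6% were higher. Of these members only NLRC5 (log2 ratio −3.83, interval −4.74 to −3.13) and HLA-B (−2.76, −3.06 to −2.48) were at least 2-fold lower, beside 9.45% of all genes. None was 2-fold higher (6.12%). HLA-F is left out of these counts because it passed the low-count filter through TIB153, the line where it is high. Its ratio was −3.44 (−5.98 to −1.99, on 3 counts in CUTLL1), given as a description. The remaining ratios were −0.62 for HLA-C, −0.36 for TAPBP, −0.32 for TAP1, −0.29 for HLA-E, −0.28 for TAP2 and −0.19 for B2M. The 4 heavy chain genes together gave 42.5 and 37.0 reads per 100 B2M reads in CUTLL1 with PKF118-310 and control, against 64.2 and 62.3 in TIB153 with PKF118-310 and control.

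**Figure D4:**
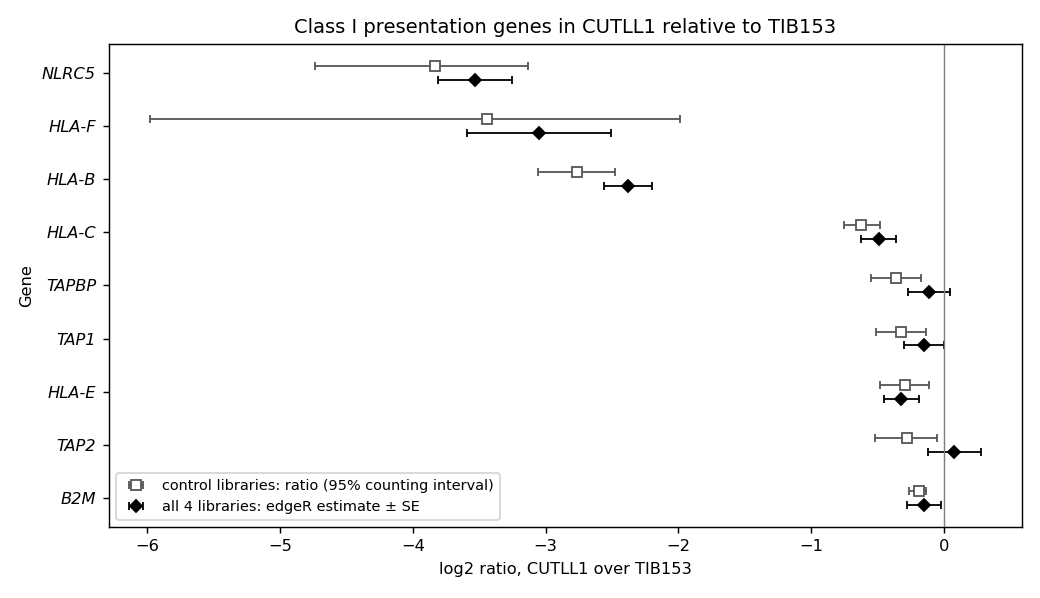
Log2 ratio of CUTLL1 over TIB153 (x axis) for each gene, in the control libraries (open squares, 95% counting interval) and by edgeR over all 4 libraries (black, SE). NLRC5, HLA-F and HLA-B stand apart from the other 6 genes, which lie between −0.62 and 0.08.

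Among 7995 genes averaging at least 20 CPM, those whose pattern over the 4 libraries was close to that of HLA-B, by Euclidean distance of centred log2 CPM, included ADAMTS1 (distance 0.485) and LAMB1 (0.508). The nearest to NLRC5 were NDST3 (0.369), TP53I11 (0.459) and SEPT11 (0.499), all much lower in CUTLL1. The nearest to B2M were DUSP14 (0.021), LCMT1 (0.0269) and VPS72 (0.0381). No other class I gene was among these, and 4 libraries do not resolve more than such broad patterns.

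Genes that act beside the members in the pathway were counted from lists drawn up by function, with earlier results of these data known. The shares of all genes beside these counts are therefore given as a description and do not test the lists. The 6 peptide trimming enzymes were lower beyond counting error in both lines, and 5 fell in edgeR's test across lines, with a median log2 change of −0.49, beside 15.7% of all genes lower in both lines and 6.78% falling in that test. ERAP2, an aminopeptidase of the endoplasmic reticulum that trims peptides for class I, had 66.3 CPM in CUTLL1 with PKF118-310 against 89.2 CPM in CUTLL1 control, and 66.0 CPM in TIB153 with PKF118-310 against 160 CPM in TIB153 control (−0.86 ± 0.19, adjusted p = 0.0219). Its relative ERAP1 fell by 0.56 on the log2 scale (SE 0.15, adjusted p = 0.0354). LNPEP, the aminopeptidase of endosomal cross-presentation, fell by 0.43 (adjusted p = 0.0488), and the cytosolic peptidases IDE and TPP2 fell by 0.54 (0.0269) and 0.42 (0.0478). NRDC stood at −0.30 ± 0.13 (0.144). The count of 5 varied with the fit: it was 1 after scaling by total counts or with DESeq2's Wald test, 3 with DESeq2 size factors, 2 and 3 from the first and second lane alone, and 0 without the line block. ERAP2 passed after scaling by total counts (adjusted p = 0.035) and in DESeq2's Wald test (0.0176).

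Of the 5 immunoproteasome genes none passed the test, with a median of −0.25. All 5 were lower beyond counting error in TIB153, beside 28.7% of all genes, where PSMB8, PSMB9 and PSMB10, the catalytic subunits, stood at −0.52 (−0.64 to −0.39), −0.65 (−0.94 to −0.37) and −0.89 (−1.34 to −0.46). In CUTLL1 the same subunits stood at −0.07 (−0.23 to 0.09), 0.16 (−0.14 to 0.47) and 0.13 (−0.33 to 0.60), and 1 of the 5, the activator subunit PSME1, was lower (−0.22, −0.33 to −0.11). The constitutive subunits PSMB5, PSMB6 and PSMB7 that they replace ranged from 0.0 to 0.18 in TIB153 and from −0.06 to 0.01 in CUTLL1. PSMB9 lies next to TAP1 in the genome and is read in the opposite direction, and in TIB153 with PKF118-310 PSMB9 was lower while TAP1 stood at −0.03. PSMB10 reads are uncertain, with 34.8% of its exonic bases shared on the same strand with AC040162.1. In all, 20.6% of the exonic bases of PSMB8 are shared with genes on the opposite strand, and whether reads were counted by strand is not known from the sources.

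None of the 5 loading factors passed (median −0.24). The chaperones CALR, PDIA3 and HSPA5, which assist folding in the endoplasmic reticulum, were lower in TIB153 at −0.43 (−0.48 to −0.38), −0.40 (−0.51 to −0.29) and −0.79 (−0.87 to −0.71), and less so in CUTLL1 at −0.06, −0.14 and −0.19. TAPBPL, a tapasin relative that edits peptides, stood at 0.23 (−0.18 to 0.65) in TIB153 and 0.07 (−0.43 to 0.58) in CUTLL1. Among 8 measured genes of heavy chain turnover and surface quality, CD47, which signals against phagocytosis, was the only one to pass (6.78% of all genes fell): it fell by 0.76 on the log2 scale (SE 0.17, adjusted p = 0.0209), with 190 CPM in CUTLL1 with PKF118-310 against 248 CPM in control, and 255 CPM in TIB153 with PKF118-310 against 559 CPM in control.

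Of 15 other class I-like genes listed, 7 passed the low-count filter, and 2 of these rose, beside 6.11% of all genes. MICA, a stress-induced ligand of the NKG2D receptor on natural killer cells, had 11.5 CPM in CUTLL1 with PKF118-310 against 5.55 CPM in control, and 16.1 CPM in TIB153 with PKF118-310 against 6.64 CPM in control (1.17 ± 0.28, adjusted p = 0.0178). ULBP2, another NKG2D ligand, had 22.5 CPM in CUTLL1 with PKF118-310 against 6.36 CPM in control, but in TIB153 10.4 CPM against 7.68 CPM, with an interval of −0.06 to 0.94, and its adjusted p of 0.0499 lay at the threshold. ULBP1 stood at 0.55 ± 0.18 (0.0604) and MICB at 0.47 ± 0.18 (0.104), with MICB at 0.80 in CUTLL1 (lower bound 0.60) and 0.13 (−0.06 to 0.33) in TIB153. The count of 2 became 1 with total counts or DESeq2 size factors and 0 with DESeq2's Wald test or without the line block. MR1, which presents vitamin metabolites, stood at 0.33 ± 0.17 (0.226), and the lipid-presenting CD1D at −0.40 (−0.55 to −0.26) in CUTLL1 and 0.12 (−0.05 to 0.29) in TIB153.

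Of 16 regulators of class I transcription, 1 rose across lines (6.11% of all genes) and none fell. This was ATF1, a factor of the CREB family that can bind the X2 box, with 53.7 CPM in CUTLL1 with PKF118-310 against 37.3 CPM in control and 50 CPM in TIB153 with PKF118-310 against 29.6 CPM in control (0.64 ± 0.16, adjusted p = 0.0225). The call was lost with DESeq2's Wald test (adjusted p = 0.167), with the second lane alone (0.056) and without the line block (0.721). IRF1, an activator of class I and immunoproteasome genes, went opposite ways: it had 74.2 CPM in CUTLL1 with PKF118-310 against 41.9 CPM in control (log2 ratio 0.82, 0.62 to 1.03), and 99.0 CPM in TIB153 with PKF118-310 against 181 CPM in control (−0.87, −0.99 to −0.74). NFKB1 showed the same split at a smaller size, at 0.26 (0.05 to 0.46) in CUTLL1 and −0.31 (−0.46 to −0.16) in TIB153, while its partner RELA stood at 0.26 (0.11 to 0.40) and 0.35 (0.20 to 0.50). EZH2, the methyltransferase of the repressive Polycomb complex, stood at 0.06 (−0.04 to 0.15) in CUTLL1 and −0.58 (−0.68 to −0.47) in TIB153. Without strand, reads of IRF1 cannot be told apart from those of genes that share 22.0% of its exonic bases on the opposite strand.

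Between the lines, 3 of the 16 regulators were lower in CUTLL1 by the edgeR test and none was higher, a share near the 14.6% of all genes. They were RFX5, the X box factor (−0.44 ± 0.12, adjusted p = 0.0151), NFYC of the Y box factor NF-Y (−0.45 ± 0.13, 0.0229) and NFKB1 (−0.85 ± 0.16, 0.00159). These steps were small beside that of NLRC5. IRF1 had a control ratio of −2.10 (−2.29 to −1.93) but did not pass over all 4 libraries (−1.24 ± 0.64, 0.347). RFX5 and NFYC were named after their values were seen.

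The interferon gamma pathway showed no called change: of 10 genes 6 passed the low-count filter and none rose or fell. Beyond counting error, 2 of the 6 were higher in CUTLL1 and 3 in TIB153, beside 23.3% and 25.2% of all genes, and none was lower. GBP2, an interferon-induced GTPase that did not pass the filter, had 36 counts in CUTLL1 with PKF118-310 against 0 in control, and 4 counts in TIB153 with PKF118-310 against 0 in control, and was named after its values were seen. IFNG itself lay at 0.25 CPM in CUTLL1 with PKF118-310 and 0 in control, and at 0.119 CPM in TIB153 with PKF118-310 and 0.261 CPM in control, all at or below 3 counts. The receptor chains IFNGR1 and IFNGR2 stood at 0.37 ± 0.17 (adjusted p = 0.163) and 0.11 ± 0.18 (0.727), the kinase JAK2 at 0.53 ± 0.25 (0.179) and the feedback inhibitor SOCS1 at 0.64 ± 0.39 (0.294).

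**Figure D5:**
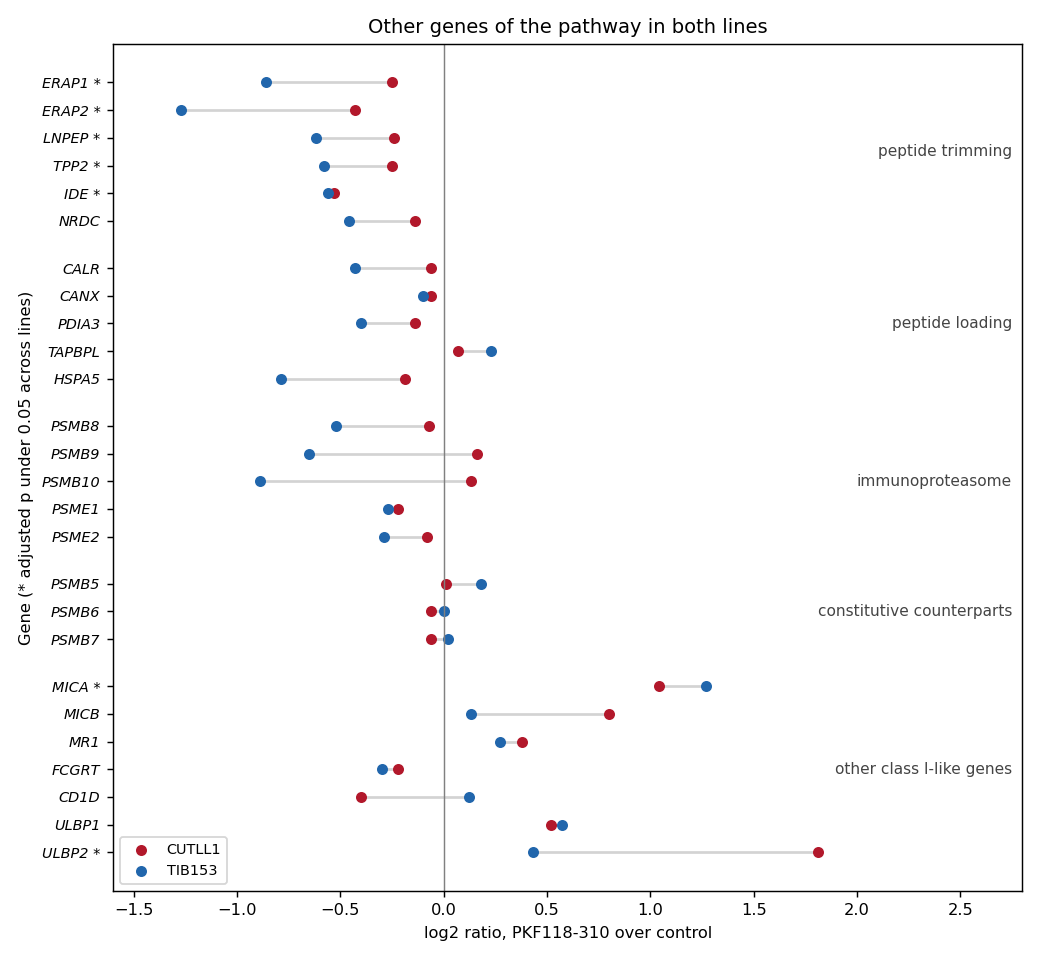
Log2 ratio of PKF118-310 over control (x axis) in CUTLL1 (red) and TIB153 (blue) for the measured genes of 5 lists, 1 gene a row, with an asterisk for those past the edgeR test across lines. The 6 peptide trimming genes lie left of 0 in both lines, PSMB9 and PSMB10 lie left of 0 in TIB153 and right of it in CUTLL1, and MICA and ULBP2 lie farthest right.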

How the data were processed

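The authors deposited, for each lane, whole-number read counts per gene, not normalized. HISAT2, HTSeq and DESeq2, without versions, and the build hg38 are listed in the processing notes of the submitters. The strand setting and the treatment of ambiguous reads were not given in the sources used here. The authors' own comparison tables (fold changes and p-values of treated over control) were not used. Library totals were 7971771 and 7609427 counts for CUTLL1 with PKF118-310 and control, and 8140391 and 7792377 for TIB153 with PKF118-310 and control.

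Lanes were summed per library, since the labels call them technical replicates. Gene positions matched GENCODE v29 for 99.5% of the 11796 genes with at least 80 reads, and exon lengths came from it. Counts were filtered with filterByExpr (treatment as group) and scaled by TMM. Across lines, edgeR 4.0.16 (quasi-likelihood, robust, R 4.3.3) was fitted to the 4 libraries with line and treatment as terms, with Benjamini-Hochberg adjustment over 13280 genes, a residual of 1 degree of freedom and a median of 13 prior degrees of freedom. Its p-values measure the spread between these libraries only. Within a line, log2 ratios of CPM used a pseudocount of 0.5 counts with an exact binomial 95% interval (Clopper-Pearson), and CPM had exact Poisson intervals. Differences of ratios had a normal interval from Poisson variances. All intervals cover counting error only, and reads carry no molecular identifiers. The edgeR step was tested on simulated data.

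The members and lists were chosen with earlier results of these data known. Named genes were all members and, from each list, every gene past the test across lines plus up to 4 more with the largest mean absolute log2 ratio among those at 5 CPM or more in a library. HLA-DRA, CD74, CIITA, IFNG, RFX5 and NFYC were named after their values were seen. Some genes that the rule names are not reported here. Alternatives were total-count and DESeq2 scaling, DESeq2 1.42.0's Wald test, a non-robust fit, no filter, each lane alone, no line block, pseudocount 2, a 1.5-fold call and, after the data were seen, ratios to B2M and list counts under the other fits.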

Additional observations from a re-analysis of the deposited data

Results flagged for a closer look

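In 4 members the treated library lay above its control in CUTLL1 and below it in TIB153. The difference of the log2 ratios, CUTLL1 minus TIB153, was 0.73 for TAP2, 0.50 for TAPBP, 0.34 for TAP1 and 0.94 for HLA-F. These differences were not tested, since each group held 1 library. For HLA-F the ratios rested on 3 to 39 counts, and for TAP1 the TIB153 ratio was −0.03. The CUTLL1 ratios of TAP2 (0.15, −0.08 to 0.39) and TAPBP (0.12, −0.08 to 0.32) had intervals that held 0. No member was beyond counting error in opposite directions in the lines.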

How the results depend on the processing

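The count of 1 member that rose across lines became 2 with no filter and 0 without the line block, where 0 of all genes rose and 0 fell. Over all genes, DESeq2's Wald test gave 200 rising and 258 falling, total-count scaling gave 560 falling, and between lines the Wald test gave 858 higher and 842 lower in CUTLL1. Peptide trimming genes that fell numbered 1 with total counts, 3 with DESeq2 size factors, 1 with the Wald test, 3 with the non-robust fit, 2 and 3 with the first and second lane, and 0 without the block. Class I-like genes that rose numbered 1 with total counts, 1 with DESeq2 size factors, 0 with the Wald test and 0 without the block.

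Across lines, the first lane alone gave 0.03 for HLA-F and −0.05 for TAP1, and leaving out a line gave −0.03 to 0.32 for TAP1, −0.58 to 0.15 for TAP2, −0.38 to 0.12 for TAPBP and −0.41 to 0.54 for HLA-F. Between lines, the second lane alone gave −0.0009 for TAP2. Relative to B2M, TAP1 in CUTLL1 came to −0.02, and HLA-B and HLA-C in TIB153 to −0.05 and −0.13.

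Within lines, a 1.5-fold call gave 2 members higher in CUTLL1 and 1 in TIB153, with 1260 genes higher and 848 lower in CUTLL1, 1513 and 1303 in TIB153, and 1426 and 2013 in the CUTLL1 control relative to the TIB153 control. The first lane alone put 1 member past 2-fold in CUTLL1, the second lane left 2 members higher beyond counting error in TIB153, and no filter gave 1120 genes 2-fold higher in TIB153. The cause of these shifts was not tested. A single lane holds fewer reads, and the 1.5-fold call is looser. No paired analysis beyond the line block was possible because each line held 1 library a treatment. HLA-F and, in CUTLL1, NLRC5 are limited by depth.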
